A study of Mus musculus with 32 samples.

Results

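Interferon response and class I antigen presentation were followed through 41 named genes in 2 mouse cell lines. The genes were taken by symbol, joined by Ensembl gene ID where the symbols of the count tables differed. The AML12 table lists 0 genes with 0 counts in all libraries, and the HL-1 table lists 23808. Absence from the AML12 table may thus mean 0 counts. All 41 were found among the 55414 genes of the HL-1 table and 40 among the 27843 genes of the AML12 table. Psmb9 was absent from the AML12 table and was not analysed there. They fall into transcription factors (Irf1, Irf7, Irf9, Stat2), guanylate-binding proteins, IFIT proteins, RNA sensors, the ISG15 system, antiviral effectors, the OAS family, IFITM proteins, the PARP9 and DTX3L group, other interferon-stimulated genes and the class I pathway.

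The hepatocyte line AML12 was sequenced under control treatment or DEX treatment (an abbreviation the labels do not spell out), at 17 h or 25 h. The cardiomyocyte line was HL-1, with libraries from 16 h or 28 h. The HL-1 controls received medium from AML12 cells that had no DEX synchronization, and the HL-1 CM cells received conditioned medium from AML12 cells with it, so both HL-1 groups were in AML12-derived medium. Each of the 8 groups holds 4 libraries, 32 in all, and the labels name no genotype and no dose. Nothing in the labels says that the replicates came from separate cultures, so the p-values measure the spread between these libraries, which may be technical.

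Cells that bind interferon at their receptors activate JAK kinases, which phosphorylate STAT proteins. STAT2 and IRF9 take part in a complex that binds the interferon-stimulated response element (ISRE), and STAT dimers bind the gamma-activated site (GAS). The genes switched on include sensors of viral RNA, proteins that block viral entry or translation, and the parts of the class I pathway that load peptides onto major histocompatibility complex (MHC) molecules. Hepatocytes and cardiac cells both respond to interferon, and many of these genes are also transcribed at a low level without infection.

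Promoters were read from RefSeq on GRCm38.p6, 250 bases before to 50 after the start, for 35 of the 41 genes. Usp18, Mx1, Mx2, Oas2, Parp9 and Parp14 had no entry. Searched on both strands, the ISRE was found for 16 of the 35 genes (45.7%) against 3.99% of all 27025 genes of the table. The GAS letters TTCNNNGAA were found for 10 (28.6%) against 9.55% of all genes. The palindromic glucocorticoid response element, searched in the same way, was found for 0 of the 35 and for 0.537% of all genes. The windows below belong to genes whose values carry the results, and show 30 bases past the start; capitals mark ISRE or GAS matches in either orientation. Irf1 lies on the plus strand at chr11:53769764-53770043 with a GAS match at position -90 from the start. Stat2 (plus strand, chr10:128270248-128270527), Gbp2 (plus strand, chr3:142620413-142620692) and Gbp3 (plus strand, chr3:142559794-142560073) have ISRE matches beginning at -222, at -59, and at -45 and -39, the last pair overlapping. Ifitm2 (minus strand, chr7:140955932-140956211) has an ISRE match at -46. Ifitm3 (minus strand, chr7:141010715-141010994) has ISRE matches at 2 and 19 and a GAS match at 13 that overlaps the latter. Ifitm1 (plus strand, chr7:140967826-140968105) has no match in its window. Irf1 and Gbp3 have 2 windows each, and the window not shown has no ISRE or GAS match for either gene.
Irf1: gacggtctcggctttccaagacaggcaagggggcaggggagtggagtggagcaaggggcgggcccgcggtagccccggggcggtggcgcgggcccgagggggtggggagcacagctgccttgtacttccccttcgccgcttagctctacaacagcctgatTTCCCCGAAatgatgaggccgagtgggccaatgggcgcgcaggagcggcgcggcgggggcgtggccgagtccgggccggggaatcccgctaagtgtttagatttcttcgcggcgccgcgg
Stat2: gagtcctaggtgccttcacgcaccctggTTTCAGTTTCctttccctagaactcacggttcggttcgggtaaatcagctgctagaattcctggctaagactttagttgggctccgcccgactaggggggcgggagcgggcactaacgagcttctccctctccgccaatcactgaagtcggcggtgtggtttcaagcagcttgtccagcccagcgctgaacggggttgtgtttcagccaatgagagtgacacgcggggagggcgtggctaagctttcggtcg
Gbp2: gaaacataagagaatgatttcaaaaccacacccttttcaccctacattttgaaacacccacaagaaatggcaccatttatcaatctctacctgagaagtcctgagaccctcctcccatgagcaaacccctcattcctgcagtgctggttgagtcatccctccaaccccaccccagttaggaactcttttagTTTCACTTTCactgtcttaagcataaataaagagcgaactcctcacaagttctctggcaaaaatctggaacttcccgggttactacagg
Gbp3: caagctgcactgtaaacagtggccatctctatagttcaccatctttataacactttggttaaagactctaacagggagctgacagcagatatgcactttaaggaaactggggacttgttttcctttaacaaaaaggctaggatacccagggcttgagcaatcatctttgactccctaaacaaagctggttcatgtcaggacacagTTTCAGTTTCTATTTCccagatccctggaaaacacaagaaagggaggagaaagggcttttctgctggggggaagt
Ifitm1: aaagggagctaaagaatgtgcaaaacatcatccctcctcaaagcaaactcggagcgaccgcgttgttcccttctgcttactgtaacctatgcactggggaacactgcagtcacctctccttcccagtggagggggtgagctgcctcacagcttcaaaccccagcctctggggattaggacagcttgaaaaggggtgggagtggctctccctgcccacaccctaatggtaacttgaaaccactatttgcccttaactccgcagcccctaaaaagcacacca
Ifitm2: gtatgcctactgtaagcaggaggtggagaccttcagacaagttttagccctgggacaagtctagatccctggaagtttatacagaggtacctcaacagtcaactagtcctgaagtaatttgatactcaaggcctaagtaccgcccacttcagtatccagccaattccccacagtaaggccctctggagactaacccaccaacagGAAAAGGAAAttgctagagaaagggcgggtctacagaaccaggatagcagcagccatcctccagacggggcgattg
Ifitm3: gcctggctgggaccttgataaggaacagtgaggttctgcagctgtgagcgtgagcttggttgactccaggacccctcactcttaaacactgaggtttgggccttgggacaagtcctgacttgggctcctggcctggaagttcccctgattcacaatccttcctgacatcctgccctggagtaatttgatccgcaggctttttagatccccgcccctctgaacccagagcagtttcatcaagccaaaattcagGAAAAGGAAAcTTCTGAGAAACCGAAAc

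Libraries held 15.03 to 17.47 M counts (M for mega) in AML12 and 15.73 to 19.3 M in HL-1, where CM libraries (17.51 to 19.3 M) were deeper than most controls (15.73 to 18.1 M). The AML12 DEX library of replicate 2 at 17 h stood apart from its group: chi-square per degree of freedom was 12.4 to 16.5 against the other 3 and 2.27 to 3.73 among them. In HL-1, control replicate 3 at 16 h stood apart in the same way, with 7.35 to 15 against 2.59 to 5.13. Of the glucocorticoid-induced genes Fkbp5, Tsc22d3, Sgk1 and Per1, the summed level in counts per M counts (CPM) was 844 to 878 with DEX and 225 to 232 in control at 17 h, and 276 to 321 against 224 to 231 at 25 h. In HL-1 it was 254 to 269 CPM with CM and 214 to 234 in control at 16 h, with 3 of 4 genes called higher. At 28 h it was 246 to 261 against 257 to 266, with 1 higher and 1 lower. The cell labels were only partly borne out by markers. In AML12, Hnf4a averaged 205 CPM and Apob 154, whereas Alb averaged 1.43. In HL-1, 6 of 9 cardiomyocyte markers were under 1 CPM, among them Myh6, Myh7, Actc1 and Nppa, whereas Des averaged 524, Gja1 466 and Tnnt2 34.5. In AML12, Des averaged 2.43 CPM, Gja1 18.8 and Tnnt2 55.1, so Tnnt2 was not higher in HL-1. Fibroblast markers summed to 1120 to 2370 CPM in HL-1, and 4 of 4 were at 10 CPM or more. Lymphocyte markers summed to at most 0.135 CPM in AML12 and 0.162 in HL-1.

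Most of the set was transcribed in both lines without any added interferon named in the labels. In AML12, 17 genes averaged 10 CPM or more, 10 lay between 1 and 10, and 13 were below 1; in HL-1 the counts were 14, 12 and 15. Per exon length, in reads per kilobase of exon and M reads (RPKM), B2m, the invariant light chain of class I molecules, was the most abundant in each line, with a mean of 354 in AML12 and 307 in HL-1. It was followed in AML12 by Bst2 (136 RPKM), which tethers budding virions, and by the class I heavy chains H2-D1 (82.7) and H2-K1 (41.9). In HL-1 it was followed by Ifitm3 (285 RPKM), a membrane protein that blocks viral entry, H2-K1 (40.9), Ifitm1 (24.8) and H2-D1 (23.9). After the low-count filter, 31 of the 40 genes were tested in AML12 and 30 of 41 in HL-1, with 25 in both. Rsad2, Mx1, Oas2, Ifi44 and Psmb8 were tested in neither line. Mean levels of the untested genes reached at most 0.489 CPM in AML12 and 0.407 in HL-1.

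The lines differed in which genes they carried, as seen side by side without a test, since each line has its own table; 99.8% of the gene IDs of the AML12 table and 94.1% of those of the HL-1 table are in GENCODE M21. For 11 genes the 16 AML12 libraries all lay above the 16 HL-1 libraries, for 5 all lay below, and for 24 they overlapped. Bst2 averaged 123 CPM in AML12 and 2.12 in HL-1. Ifitm1, at 0.0233 CPM in AML12, averaged 27.1 in HL-1, and Ifitm3 averaged 0.083 against 193. Ifitm2 lay in the overlap, with 21.6 CPM in AML12 and 14.6 in HL-1. Tap1, a subunit of the peptide transporter of the endoplasmic reticulum, averaged 0.0154 CPM in AML12 and 3.55 in HL-1. It had 0 counts in AML12 control and DEX cells at 17 h and in DEX cells at 25 h, which allows up to 0.0466, 0.046 and 0.0445 CPM over each group (3 counts, counting error only).

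**Figure D1:**
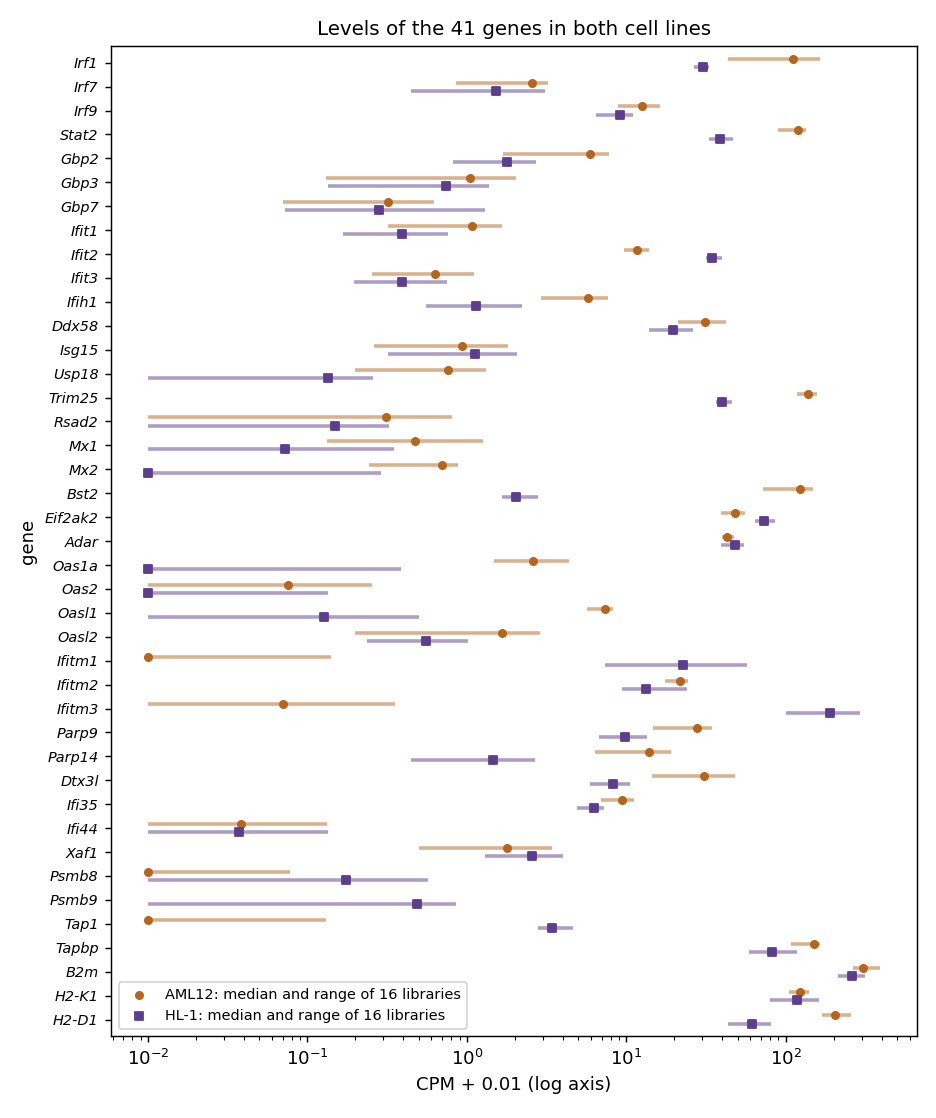
Level of each gene in AML12 and HL-1, as CPM plus 0.01 on a log axis, with points at the median of the 16 libraries of a line and lines from the lowest to the highest. Ifitm1, Ifitm3 and Tap1 lie far higher in HL-1, and Bst2 (means of 123 and 2.12 CPM), Oas1a and Oasl1 far higher in AML12.

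DEX cells at 17 h had lower levels of 15 of the 31 tested genes and a higher level of 1. Among all 14114 tested genes, 38.4% were called in the same comparison, 17.9% lower and 20.5% higher, by edgeR's quasi-likelihood test at a Benjamini-Hochberg adjusted p of 0.05. The median log2 fold change of the tested genes of the set was -0.247. All 4 DEX libraries lay below all 4 controls for 15 genes, against 15.8% of all tested genes, and above them for 1, against 18.3%. By role, 3 of 4 transcription factors were lower and 1 was higher. Lower genes were also 2 of 2 guanylate-binding proteins, 2 of 2 RNA sensors, 3 of 3 genes of the PARP9 and DTX3L group, 1 of 3 IFIT genes, 1 of 3 of the ISG15 system, 1 of 3 of the OAS family, 1 of 2 other interferon-stimulated genes and 1 of 4 class I genes. None of 4 antiviral effectors passed the test, and neither did Ifitm2. In bulk RNA, fewer cells that express a gene and less of its RNA per cell cannot be told apart. Macrophage and dendritic cell markers summed to 7.98 to 11 CPM with DEX and 10 to 11.6 in control; Csf1r made up most of this. Endothelial markers summed to 1.79 to 2.91 CPM with DEX and 2.96 to 3.79 in control, nearly all from Cdh5 (-0.63 ± 0.18, called lower). Hepatocyte markers summed to 280 to 293 CPM with DEX and 380 to 417 in control: Hnf4a (-0.54 ± 0.04) and Apob (-0.38 ± 0.07) were lower, and Alb and Ttr, at low levels, were among 3 of 6 tested that were higher. The part of these markers in the result was not tested.

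Irf1, a transcription factor that binds promoters of class I and guanylate-binding protein genes, had 72.5, 78.4, 72.4 and 88 CPM in control replicates 1 to 4 at 17 h and 46.9, 43.5, 50.9 and 52.6 with DEX. The groups did not overlap, and the log2 fold change was -0.68 ± 0.07 (SE, n = 4 per group; adjusted p = 8.3e-09, edgeR). Irf7, which amplifies interferon transcription, was lower by the same test (log2 fold change -0.86 ± 0.20, adjusted p = 0.0015). Irf9, the DNA-binding subunit of the complex that binds the ISRE, was lower too (-0.36 ± 0.09, adjusted p = 0.0023). Its partner Stat2 went the other way. Stat2 measured 89.2, 98.8, 97.8 and 98 CPM in control and 111, 117, 105 and 105 with DEX, so that every DEX library was above every control. The log2 fold change of Stat2 was 0.19 ± 0.05 (adjusted p = 0.00165, edgeR).

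The guanylate-binding proteins, GTPases that attack the vacuoles of intracellular pathogens, gave the largest log2 difference of the set. Gbp3 had 0.963, 1.1, 0.971 and 1.16 CPM in control and 0.121, 0.317, 0.122 and 0.185 with DEX. The ranges are far apart, although the DEX values rest on few counts, and the log2 fold change was -2.46 ± 0.38 (adjusted p = 1.15e-05, edgeR). Gbp2 had 5.58, 6.56, 5.6 and 6.05 CPM in control and 1.94, 2.98, 1.83 and 1.67 with DEX. Its highest DEX value was that of replicate 2, the library that stood apart. The log2 fold change of Gbp2 was -1.50 ± 0.17 (adjusted p = 8.9e-08, edgeR).

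PARP9 and DTX3L form a complex of an ADP-ribosyltransferase family member and a ubiquitin ligase, and Parp14 belongs to the same family. Dtx3l had 26.3, 24.3, 23.8 and 28.3 CPM in control and 14.9, 15.5, 14.9 and 14.6 with DEX, with no overlap (log2 fold change -0.78 ± 0.09, adjusted p = 2.54e-07, edgeR). Parp9 had 22.7, 22.6, 23.2 and 25.9 CPM in control and 15.4, 15.1, 14.7 and 18.5 with DEX (-0.57 ± 0.07, adjusted p = 9.27e-07). Parp14 was lower (-0.81 ± 0.13). Parp9 and Dtx3l lie next to each other on chromosome 16 and share 682 bases on opposite strands, and Parp14 is their neighbour there. The strand setting of the counting is not given in the sources used here, so reads from the shared bases cannot be told apart.

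Of the sensors, Ifih1 and Ddx58, which detect viral double-stranded RNA in the cytosol, were lower with log2 fold changes of -0.73 ± 0.13 and -0.24 ± 0.08. Oasl2, an OAS-like protein (-1.75 ± 0.31), and Xaf1, an antagonist of apoptosis inhibitors (-1.42 ± 0.28), were lower. Ifit1, which binds foreign RNA caps (-1.12 ± 0.31), and Trim25, a ubiquitin ligase of the sensing pathway (-0.13 ± 0.04), were lower too. Isg15, the ubiquitin-like modifier, had a fold change of -0.78 ± 0.33 and did not pass the test (adjusted p = 0.069, edgeR). Nor did the antiviral effectors Bst2 (-0.25 ± 0.10), Eif2ak2 (-0.09 ± 0.05), Adar and Mx2. Bst2 was called lower under some alternatives, among them total counts (-0.28 ± 0.10, adjusted p = 0.0345, edgeR), no low-count filter and the replicate block. Isg15 was called lower after thinning and without control replicate 2 or 4 or DEX replicate 4.

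In the class I pathway 1 of 4 tested genes was lower. Tapbp, tapasin, which bridges class I molecules to the peptide transporter, had 159, 164, 158 and 162 CPM in control and 110, 120, 107 and 110 with DEX. The groups were far apart relative to their spread, with a log2 fold change of -0.53 ± 0.04 (adjusted p = 1.1e-09, edgeR), the smallest p of the set. Tapbp shares 3422 bases with Zbtb22 on the same strand in the GENCODE M21 annotation. B2m, H2-K1 and H2-D1 had log2 fold changes of -0.05 ± 0.08, 0.04 ± 0.05 and -0.10 ± 0.07 and did not pass the test. These 3 values rest in part on replicate 2 of DEX at 17 h. B2m measured 266, 390, 263 and 291 CPM in DEX replicates 1 to 4 and 306, 312, 317 and 318 in control. H2-D1 measured 232, 170, 258 and 225 CPM and H2-K1 141, 114, 138 and 136 with DEX. Replicate 2 was thus the highest of its group for B2m and the lowest for both heavy chains.

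Without that library 19 of 32 tested genes were called at 17 h, 18 of them lower, against 39% of all 14264 genes then tested. Of the 19, 16 were shared with the full comparison. B2m was then lower (-0.20 ± 0.04, adjusted p = 0.000448, edgeR), as was Eif2ak2 (-0.13 ± 0.05, adjusted p = 0.0389). The other added gene, Mx1, is counted in the 19 but is not read as a result. It did not pass the low-count filter with all libraries and is highest in control cells at 17 h. Mx1 was also called lower without control replicate 4 (-1.14 ± 0.29), without DEX replicate 1, 3 or 4, and without that filter. H2-K1 and H2-D1 had 0.10 ± 0.04 and 0.00 ± 0.05 and were not called. With DEX replicate 3 left out instead, H2-D1 was called lower (-0.19 ± 0.07, adjusted p = 0.041, edgeR).

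**Figure D2:**
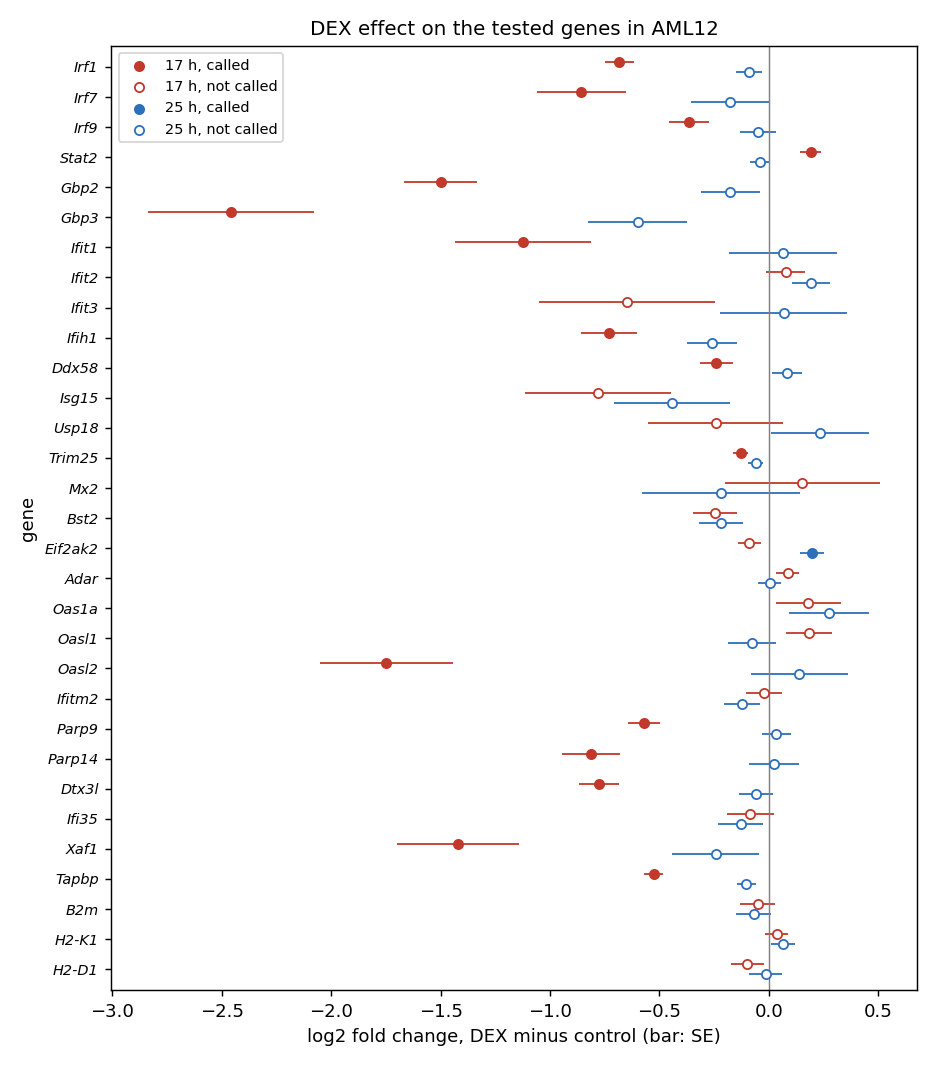
Log2 fold change of DEX against control in AML12 at 17 h and 25 h for the 31 tested genes, grouped by role, with bars of 1 SE and filled points for genes with an adjusted p under 0.05. At 17 h, 15 genes are called lower and 1 higher; at 25 h the 1 called gene, Eif2ak2, is higher.

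Of the promoters in the RefSeq table, the ISRE was found for 5 of 13 genes lower at 17 h (Ddx58, Gbp2, Gbp3, Ifih1 and Ifit1) and for 7 of 13 genes not called. The GAS was found for 1 of the 13 lower genes, Irf1, and for 6 of the 13 not called. Of the genes with printed windows, Gbp2 and Gbp3 carry an ISRE match and were lower at 17 h, whereas Stat2 carries one and was higher.

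At 25 h, 1 of the 31 genes differed between DEX and control cells, against 11.7% of all tested genes, 6.79% higher and 4.96% lower. The median log2 fold change of the 31 was -0.058, and 6 had an unadjusted p under 0.05. The DEX libraries all lay above control for 1 gene and all below for 1, Ifih1, which was not called (9.57% and 8.46% of all tested genes). The called gene was Eif2ak2, the kinase PKR, which halts translation on binding double-stranded RNA. Eif2ak2 measured 40.7, 39.6, 40.9 and 43.8 CPM in control and 46, 47, 47.3 and 48.9 with DEX. The groups did not overlap, by a small margin, and the log2 fold change was 0.20 ± 0.06 (adjusted p = 0.0183, edgeR). This call depended on single libraries: it was lost without control replicate 1, 2 or 3 or DEX replicate 3 or 4 at 25 h. Irf1 measured 157, 163, 153 and 153 CPM in control and 157, 152, 147 and 134 with DEX at 25 h (-0.09 ± 0.06). Gbp2 measured 6.94, 7.52, 6.71 and 7.46 in control and 5.87, 6.93, 7.83 and 4.76 with DEX (-0.17 ± 0.13). Tapbp measured 147, 162, 158 and 158 in control and 146, 152, 150 and 134 with DEX (-0.10 ± 0.04). For these 3 genes the groups overlapped at 25 h. Gbp3, at -0.60 ± 0.23, was not called, and was called lower (-0.90) without DEX replicate 2 at 25 h. Macrophage and dendritic cell markers summed to 13.1 to 14.6 CPM with DEX and 8.8 to 10.8 in control at this time.

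The DEX effect differed between the times, tested as an interaction, for 13 of the 31 genes. For 12 the effect at 25 h was above that at 17 h and for 1 below, against 7.91% and 8.27% of all tested genes, 16.2% in all. The median difference of log2 fold changes was 0.321. The difference was 1.89 ± 0.38 for Oasl2, 1.86 ± 0.46 for Gbp3, 1.32 ± 0.22 for Gbp2 and 1.18 ± 0.35 for Xaf1. It was 0.83 ± 0.17 for Parp14, 0.72 ± 0.12 for Dtx3l, 0.60 ± 0.10 for Parp9 and 0.42 ± 0.06 for Tapbp. Oasl2, Gbp3 and Xaf1 fell to 0.19, 0.121 and 0.494 CPM in their lowest AML12 libraries and rest on few counts there. Over the alternatives the Oasl2 difference ran from 1.62 to 2.37, and the Xaf1 call was lost under 2 of 22. Irf1 differed by 0.59 ± 0.09 (adjusted p = 2.4e-05, edgeR), the smallest p of the 31. Eif2ak2 differed by 0.29 ± 0.08, and Stat2 was the gene below, at -0.23 ± 0.06. Ifit1 (1.19 ± 0.40, adjusted p = 0.044) and Ddx58 (0.32 ± 0.10, adjusted p = 0.034) were near the threshold, and their calls were lost under 14 of 22 and 11 alternatives. Irf7 and Irf9, at 0.68 ± 0.27 and 0.31 ± 0.12, did not pass.

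**Figure D3:**
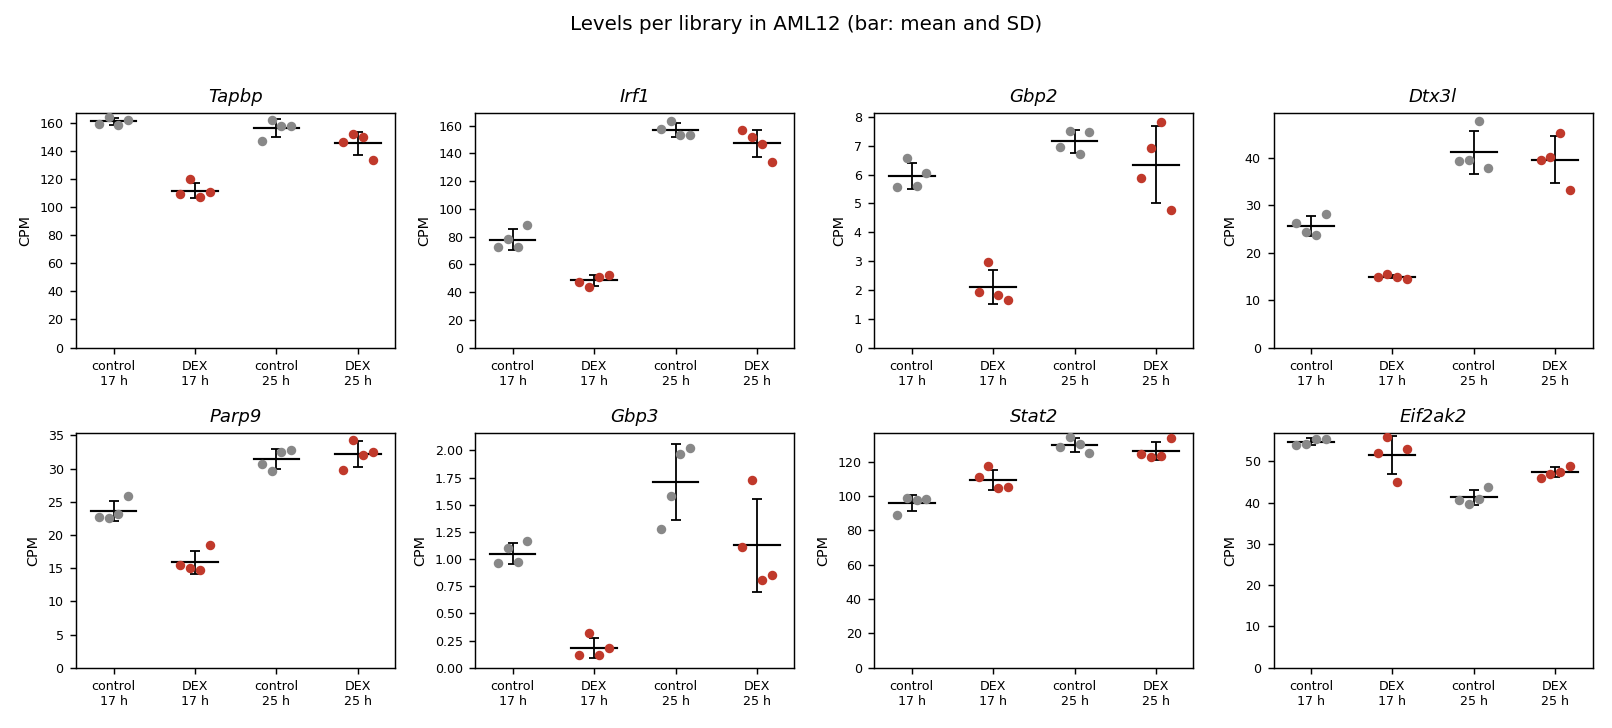
Level in CPM of 8 genes in the 16 AML12 libraries, with 4 points per group and a line at the group mean. At 17 h the DEX points of Tapbp, Irf1, Gbp2, Dtx3l, Parp9 and Gbp3 lie below all control points and those of Stat2 above; at 25 h only those of Eif2ak2 lie apart among these 8 genes.

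Levels also differed between 17 h and 25 h within each treatment; these contrasts share libraries with those above. In control cells 11 genes were higher at 25 h and 4 lower, against 22.1% and 21.4% of all tested genes and 43.5% called in all. Libraries of the times did not overlap for 10 genes higher and 4 lower (22.2% and 21.4%). Irf1 was the gene with the smallest p, and the 4 control libraries went from 72.4 to 88 CPM at 17 h to 153 to 163 at 25 h (1.01 ± 0.06). Dtx3l (0.68), Stat2 (0.43 ± 0.04), Parp14 (0.42) and Parp9 (0.41) were also higher. The 4 lower genes were Oas1a, an oligoadenylate synthetase (-0.79 ± 0.17), Eif2ak2 (-0.41 ± 0.05), H2-D1 (-0.25 ± 0.07) and H2-K1 (-0.20 ± 0.05). In DEX cells 19 genes were higher at 25 h and 2 lower, against 27.8% and 28.2% of all tested genes and 56% called in all. The times did not overlap for 19 genes higher and 1 lower (23.1% and 23.1%). Gbp3 was higher by 2.57 ± 0.37, Oasl2 by 2.02, Xaf1 by 1.73, Irf1 by 1.60 ± 0.06 and Gbp2 by 1.59 ± 0.17, whereas Oas1a (-0.69 ± 0.16) and H2-K1 (-0.17 ± 0.05) were lower.

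Further genes of the pathway were read from 7 lists with 132 genes, of which 94 were tested in AML12. At 17 h 48 were lower with DEX (51.1%) and 10 higher (10.6%), with a median log2 fold change of -0.246. Of all tested genes 17.9% were lower and 20.5% higher, the shares to set beside each list at this time. Of 16 receptor and JAK-STAT genes, 7 were lower and 1 higher. Jak2, a receptor kinase, was lower (-0.73 ± 0.05), and so were the receptor chains Ifnar2 (-0.33 ± 0.07) and Ifnar1 (-0.25 ± 0.04). Socs3, a feedback inhibitor of JAK signalling, was higher (0.31 ± 0.06). Of 14 sensing and relay genes, 3 were lower (21.4%), among them Ikbke (-0.34 ± 0.05), a kinase that activates IRF proteins. Another 2 were higher (14.3%), among them Mavs (0.30 ± 0.06), the mitochondrial adaptor. For this list the shares are near those of all tested genes. Of 33 further interferon-stimulated genes, 14 were lower and 5 higher. The T-cell attractant Cxcl11 (-1.41 ± 0.11) and Cd274, which encodes PD-L1 (-1.06 ± 0.10), were lower, and Lgals3bp was higher (1.40 ± 0.04).

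Of the GTPases of the interferon gamma response, 12 of 12 tested genes were lower at 17 h, with a median of -1.228. Among them were Gbp11 (-2.73 ± 0.42), Tgtp1 (-2.17 ± 0.41) and Irgm1 (-0.69 ± 0.05), which averaged 91.3 CPM in control and 56.7 with DEX. Reads of near-identical members of this family may be split between them. At 25 h 1 of the 12 was called (8.33%, against 11.7% of all tested genes), Irgm1 (-0.16 ± 0.05). Of 16 class I pathway genes, 10 were lower at 17 h and 2 higher. The immunoproteasome subunit Psmb10 (-0.83 ± 0.08) and the proteasome activator Psme2 (-0.68 ± 0.10) were lower, and the chaperone Calr was higher (0.39 ± 0.03). Cd74, the class II invariant chain, was lower at both times (-1.53 ± 0.22 and -1.24 ± 0.22). Over all 94 genes at 25 h, 8 were higher (8.51%) and 6 lower (6.38%), near the 6.79% and 4.96% of all tested genes. Interferon ligands were not tested in either line. In AML12, Ifne was the 1 ligand listed, with at most 0.26 CPM, and the absent ligands may have had 0 counts. In HL-1 the highest of 8 was Ifnk with 0.129 CPM, and 5 had 0 counts in all libraries.

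In HL-1, conditioned medium changed 2 of the 30 tested genes at each time, and both were IFITM genes. Of all 14450 tested genes, 2.03% were called at 16 h and 1.92% at 28 h, with 1.2% and 1.22% lower and 0.83% and 0.706% higher. Median log2 fold changes were -0.003 at 16 h and -0.022 at 28 h, and 3 and 4 of the 30 had an unadjusted p under 0.05. IFITM proteins sit in plasma and endosomal membranes and hinder the fusion of viruses. Ifitm2, Ifitm1 and Ifitm3 lie within 55.9 kb on chromosome 7 of GRCm38, and reads of these close paralogs may be split between them. Ifitm2 also shares 1101 bases with Gm45717 on the same strand in GENCODE M21, and reads from these bases cannot be told apart.

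Ifitm1 measured 13.9, 13.6, 13.4 and 13.3 CPM in control replicates 1 to 4 at 16 h and 8.46, 7.3, 7.3 and 8.1 with CM. Every CM library lay below every control, and the log2 fold change was -0.80 ± 0.10 (adjusted p = 6.44e-06, edgeR). At 28 h it measured 57.3, 53, 57.1 and 45.4 CPM in control and 37.9, 32.5, 31.4 and 34.2 with CM. The groups were again apart although both were several-fold higher than at 16 h, with a log2 fold change of -0.65 ± 0.07 (adjusted p = 1.27e-06). Ifitm3 measured 147, 143, 170 and 156 CPM in control at 16 h and 110, 115, 101 and 111 with CM. At 28 h Ifitm3 measured 290, 292, 283 and 289 CPM in control and 223, 209, 222 and 227 with CM. Control replicate 3 at 16 h, the highest of its group, is the library that stood apart. The log2 fold changes of Ifitm3 were -0.50 ± 0.05 (adjusted p = 1.36e-07) and -0.39 ± 0.04 (adjusted p = 4.63e-06), again with no overlap. Without control replicate 3 at 16 h the values were -0.82 for Ifitm1 and -0.46 for Ifitm3.

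Ifitm2 measured 9.96, 10.6, 9.36 and 10.5 CPM in control and 9.81, 10.3, 9.75 and 10.3 with CM at 16 h. The groups overlapped, and the 95% interval of the log2 fold change was -0.18 to 0.18, which does not reach the intervals of Ifitm1 (-0.996 to -0.604) and Ifitm3 (-0.596 to -0.401). At 28 h Ifitm2 measured 19.8, 24, 20.6 and 18.7 CPM in control and 17.1, 16.2, 17.7 and 18 with CM. All CM libraries were below all controls, but the change of -0.27 ± 0.07 did not pass the test (adjusted p = 0.07, edgeR). Without control replicate 4 at 28 h it did (-0.31 ± 0.08, adjusted p = 0.0396). CM libraries all lay below control for 2 genes at 16 h and for 4 at 28 h (3.52% and 4.64% of all tested genes), the last 4 with Ifitm2 and Irf7. For 0 genes they all lay above (3.28% and 3.1%).

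The CM effect did not differ detectably between 16 h and 28 h: 0 of the 30 genes were called by edgeR, 0 by DESeq2, and 1, Ifitm2, had an unadjusted p under 0.05 in edgeR. Over all tested genes 0.277% were called. The differences were 0.15 ± 0.12 for Ifitm1, 0.11 ± 0.07 for Ifitm3 and -0.26 ± 0.12 for Ifitm2. Fibroblast markers summed to 1120 to 1270 CPM with CM and 1330 to 1500 in control at 16 h, and to 1840 to 2100 against 2190 to 2370 at 28 h. Col3a1, at a mean of 1460 CPM in HL-1, made up most of these sums. At 16 h 2 of the 4 markers were lower, Dcn with a log2 fold change of -1.05 ± 0.06 and Col3a1 with -0.28 ± 0.04. The other 2, Col1a1 and Pdgfra, had values above 0 and were not called. The part of these differences in the Ifitm values was not tested.

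**Figure D4:**
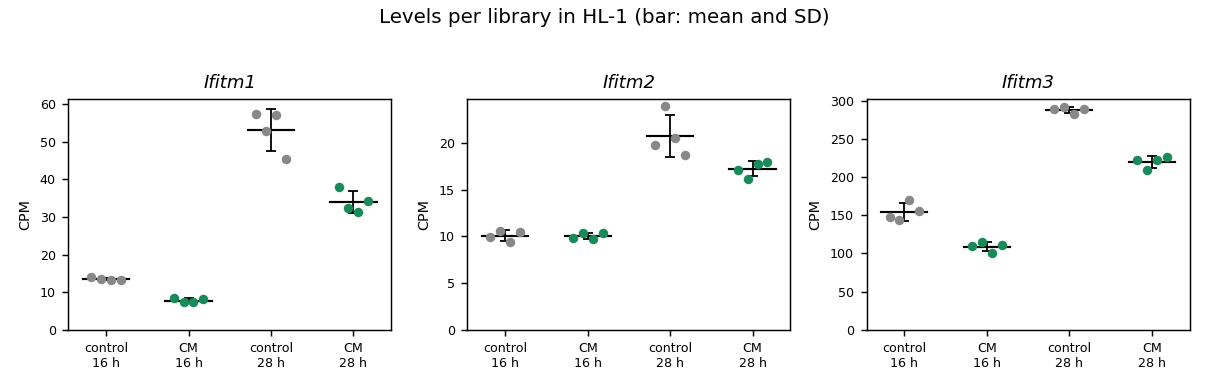
Level in CPM of Ifitm1, Ifitm2 and Ifitm3 in the 16 HL-1 libraries, with 4 points per group and a line at the group mean. CM points of Ifitm1 and Ifitm3 lie below all control points at 16 h and 28 h; those of Ifitm2 overlap with control at 16 h.

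For the class I genes in HL-1 no difference between media passed the test. B2m had a 95% interval of -0.06 to 0.12 at 16 h and H2-K1 of -0.10 to 0.12. Irf1 had an interval of -0.03 to 0.23 and Gbp2, at low counts, of 0.04 to 1.10. Of the 15 genes lower with DEX in AML12 at 17 h, 14 were tested in HL-1 and 0 were lower with CM at either time. Of all tested HL-1 genes 1.2% were lower at 16 h and 1.22% at 28 h, so 0 of 14 is near that share. Of the 83 listed pathway genes tested in HL-1, 1 was higher and 1 lower with CM at 16 h, against 0.83% and 1.2% of all tested genes. These were H2-Q4, a class I-like gene (0.43 ± 0.11), and Stat3 (-0.27 ± 0.04). At 28 h 1 was lower (1.2% of the 83, against 1.22% of all tested genes), Socs3 (-0.39 ± 0.09).

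Time separated the HL-1 groups more widely than the medium did. In control medium 20 of the 30 genes were higher at 28 h than at 16 h and 2 lower, against 31.5% and 31.3% of all tested genes and 62.8% called in all. With CM the counts were also 20 and 2, against 32.6% and 32.9% and 65.4% in all. The times did not overlap for 17 genes higher and 2 lower in control medium (28.2% and 27.6%) and for 20 and 2 with CM (28.8% and 29.4%). Median log2 fold changes were 0.603 and 0.671. The 2 media share no libraries, and 19 of the 30 genes (63.3%) were higher in both and 2 (6.67%) lower in both, against 28.1% and 28.5% of all tested genes. Gbp7 was called higher in control medium (2.29 ± 0.57, against 1.01 ± 0.50 with CM) and Tap1 with CM (0.46 ± 0.14, against 0.18 ± 0.15). Gbp7 averaged 0.462 CPM over the HL-1 libraries, from 0.0626 to 1.29, and rests on few counts. It may have passed the low-count filter only through its 28 h libraries. Its value is thus not read as a result, though the 20 genes higher in control medium include it.

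Among membrane proteins, Ifitm1 was higher at 28 h by 1.97 ± 0.08 in control medium (adjusted p = 5.5e-17, edgeR) and by 2.12 ± 0.09 with CM. Ifitm2 was higher by 1.04 ± 0.08 and 0.78 ± 0.08 and Ifitm3 by 0.91 ± 0.05 and 1.01 ± 0.05. In the class I pathway, H2-K1 had 79.8, 88.9, 94.6 and 88.2 CPM at 16 h in control medium and 147, 159, 156 and 162 at 28 h, without overlap (0.83 ± 0.05). Tapbp (0.81 ± 0.05), H2-D1 (0.70 ± 0.06) and B2m (0.43 ± 0.04) were higher in control medium, and in CM the values were 0.73 ± 0.05, 0.73 ± 0.06 and 0.37 ± 0.04. Psmb9, an immunoproteasome subunit at a mean of 0.453 CPM, was not called in either medium.

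Of the transcription factors in HL-1, Irf7 (1.56 ± 0.26) and Stat2 (0.27 ± 0.06) were higher at 28 h in control medium, whereas Irf1 (0.01 ± 0.06) and Irf9 (-0.18 ± 0.12) did not pass. Isg15 (1.29 ± 0.30), Parp14 (1.25 ± 0.33), Xaf1 (0.73 ± 0.20), Ddx58 (0.65 ± 0.08) and Parp9 (0.55 ± 0.11) were higher as well. The lower genes in both media were Adar, the RNA-editing adenosine deaminase (-0.24 ± 0.05 and -0.32 ± 0.05), and Ifit2 (-0.17 ± 0.06 and -0.17 ± 0.05). The fibroblast marker sums, 1330 to 1500 CPM at 16 h and 2190 to 2370 at 28 h in control medium, went the same way as most of these genes. So did the cardiomyocyte marker sums, 885 to 932 CPM at 16 h and 1130 to 1190 at 28 h. The part of either marker list was not tested.

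**Figure D5:**
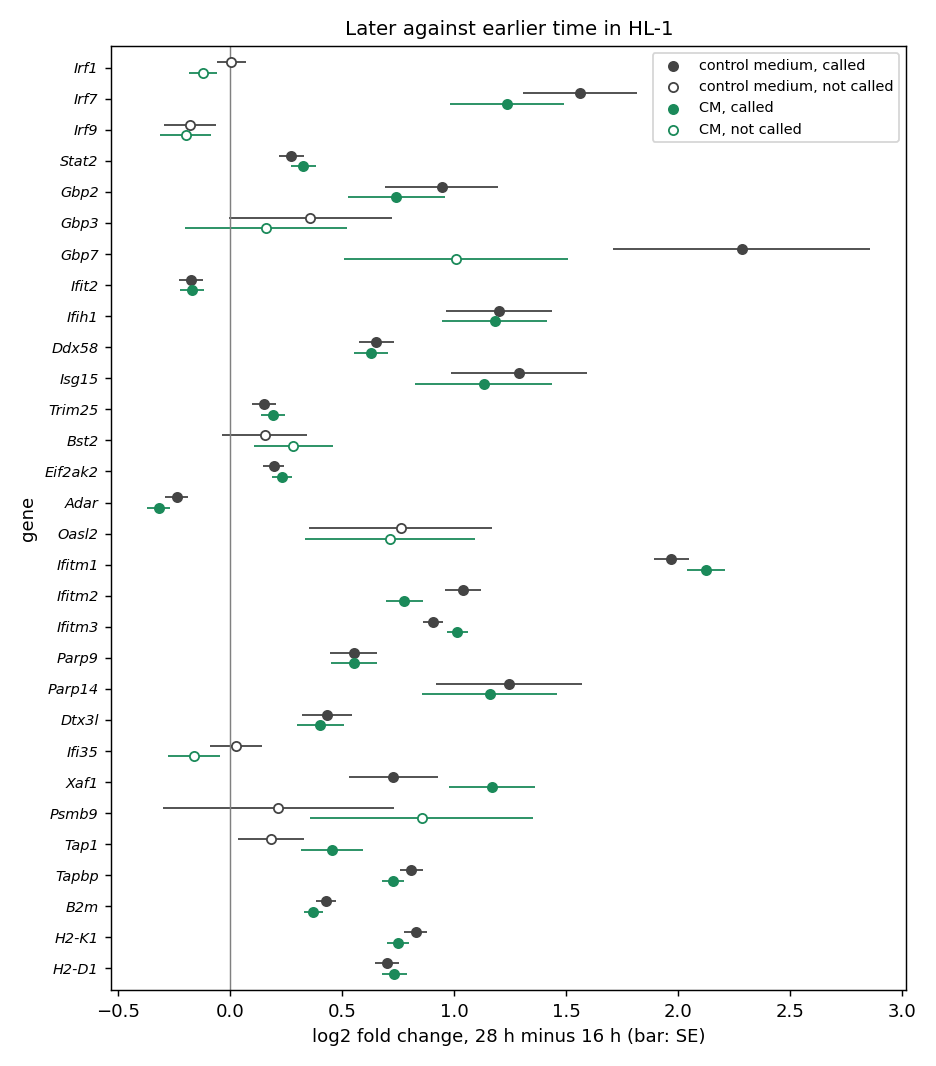
Log2 fold change of 28 h against 16 h in HL-1 in control medium and in CM for the 30 tested genes, with bars of 1 SE and filled points for an adjusted p under 0.05. In each medium 20 genes are called higher and 2, Adar and Ifit2, lower, and Ifitm1 has values of 1.97 and 2.12.

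In control cells, 7 genes were higher at the later time in both lines: Ddx58, Dtx3l, Parp14, Parp9, Stat2, Trim25 and Xaf1. These are 7 of 11 such genes in AML12, 7 of 20 in HL-1 and 7 of the 25 tested in both (28%), against 9.46% of all 12272 genes tested in both. In each line alone, 35.5% of the tested genes of the set were higher in AML12 and 66.7% in HL-1. Of all tested genes, 22.1% and 31.5% were. The larger shares of the set raise the overlap by themselves, and agreement between the lines was not tested. The time points differ between the lines. The call of Xaf1 in AML12 was lost under 8 of 15 alternatives and that of Trim25 in HL-1 under 5 of 15. Irf1, which was higher by 1.01 ± 0.06 in AML12, measured 26.8 to 33.1 CPM over all 16 HL-1 libraries. H2-K1 and H2-D1 were lower at the later time in AML12 control cells and higher in HL-1 control cells. Eif2ak2 differed in the same manner, with -0.41 ± 0.05 in AML12 and 0.19 ± 0.05 in HL-1; the difference between lines was not tested. Of the listed pathway genes in HL-1 control medium, 47 were higher (56.6%) and 17 lower (20.5%) at 28 h. Of all tested genes 31.5% were higher and 31.3% lower. Receptor and JAK-STAT genes counted 9 higher and 0 lower, among them Jak2 (0.82 ± 0.04) and Stat3 (0.83 ± 0.04). Further interferon-stimulated genes counted 18 higher and 3 lower, among them Isg20 (1.28 ± 0.10). Class I pathway genes were split, with 10 higher (52.6%), such as H2-T23 (1.31 ± 0.09), and 7 lower (36.8%), such as the constitutive proteasome subunit Psmb5 (-0.38 ± 0.06).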

How the data were processed

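The data are 2 tables of read counts per gene, 1 per cell line, as deposited by the authors; the values are raw whole-number counts, with differing totals. FastQC 0.11.8, STAR, mm10 and GRCm38 are named in the submitters' processing notes, and TRIzol and NEBNext Ultra II in the labels' protocols. The counter, its strandedness and the gene annotation were not given in the sources used here. The HL-1 CM columns are named DEX, and the labels' descriptions tie them to CM titles; 0 per-sample columns were left unmapped.

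Genes kept by filterByExpr by group (14114 in AML12, 14450 in HL-1) entered edgeR 4.0.16 (R 4.3.3) and its quasi-likelihood test. Counts were scaled by TMM, with 1 mean per group over the 16 libraries of a line. A gene was called at p of 0.05 after Benjamini-Hochberg adjustment across every tested gene, and the SE is the size of the log2 fold change divided by the root of F. CPM uses TMM-scaled sizes, and RPKM the exon length in GENCODE M21 on GRCm38. Reads are not independent molecules, so limits from 3 counts cover counting error only. Libraries held 15.03 to 19.3 M (mega) counts, and the script was tested on simulated data.

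The 41 genes, the pathway lists and the tests were chosen with earlier results of these data known, so the counts per list are descriptions. Values per library are given by a rule for called genes with the smallest p, up to 6 per direction in each comparison of treated with control, with a mean of at least 1 CPM in a group. Other values per library (Ifitm2, B2m, H2-K1, H2-D1, and Irf1, Gbp2 and Tapbp at 25 h) were picked after they were seen. Pathway genes are given up to 4 per list. Some listed pathway genes are not reported here by name, though the counts per list hold them. Alternatives were RLE size factors, total counts, no low-count filter, DESeq2 1.42.0, a block for the replicate number, a fit restricted to the groups compared, and omission of each library in turn. Thinning to equal totals was added after the data were seen.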

Additional observations from a re-analysis of the deposited data

Results flagged for a closer look

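In 13 of 201 groups of 4 libraries, 1 library lay far from the other 3 in CPM, its gap being over 0.829 of the range of the group; chance gives about 1 in 20 groups. In AML12 control cells at 17 h these were Adar in replicate 4 at 42.9 CPM (others 41.1 to 41.3), Ifitm2 in replicate 2 at 20.2 (22.7 to 23.1), Irf7 in replicate 1 at 2.05 (2.79 to 2.85) and Stat2 in replicate 1 at 89.2 (97.8 to 98.8). With DEX at 17 h they were H2-K1 in replicate 2 at 114 CPM (136 to 141) and Oasl1 in replicate 4 at 7.65 (8.22 to 8.24). At 25 h they were Dtx3l in control replicate 3 at 47.9 CPM (38 to 39.6), and with DEX Ifi35 in replicate 1 at 10.4 (8.7 to 8.97), Parp14 in replicate 4 at 12.1 (18 to 19.1) and Stat2 in replicate 4 at 134 (123 to 124). In HL-1 they were Adar in control replicate 4 at 16 h with 49.3 CPM (52.8 to 53.6), Trim25 in CM replicate 1 at 16 h with 38.7 (36.4 to 36.6) and Irf9 in CM replicate 2 at 28 h with 8.91 (8.07 to 8.21).

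The log2 DEX effect in AML12 differed between 25 h and 17 h for 13 genes in edgeR's interaction test. The differences were 0.594 for Irf1, -0.231 for Stat2, 1.324 for Gbp2, 1.859 for Gbp3, 1.187 for Ifit1, 0.321 for Ddx58, 0.286 for Eif2ak2, 1.887 for Oasl2, 0.603 for Parp9, 0.835 for Parp14, 0.719 for Dtx3l, 1.177 for Xaf1 and 0.422 for Tapbp.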

How the results depend on the processing

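Of 114 results for single called genes, 103 stayed on the same side of the threshold under every alternative that tested the gene, and 0 changed direction. Gbp7 (time in HL-1 control medium) and Ifit3 (time in AML12 DEX cells) are among the 103 and were tested under 14 of 15 alternatives. The DEX count at 25 h, 1 gene, was 2 without the low-count filter and 2 with only the compared libraries, when Bst2 was called lower, 0 after thinning, and 0 to 2 with 1 library left out. Counts with 1 library left out were 16 to 19 for DEX at 17 h, 10 to 13 for the difference between times, 2 to 2 for CM at 16 h and 2 to 3 at 28 h. The counts of 19 include Mx1, which is not read as a result. Calls lost were those of Eif2ak2 at 25 h, with adjusted p up to 0.124 in edgeR, of the Ifit1 difference, up to 0.103, of Ddx58 (DEX at 17 h under 2 alternatives and the difference under 11) and of Xaf1 (control time under 8 of 15 and the difference under 2 of 22). Gbp3, Usp18, Isg15, H2-K1 and Trim25 lost a call in 1 contrast each, under 1 to 5 alternatives. Genes below about 1 CPM rest on few counts, so that differences in them may not be detectable at this depth.

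Replicate numbers gave no clear pairing of the samples: deviations of same-numbered libraries correlated at -0.187 to 0.186, over 0.1 for 4 of 32 pairs. All were above 0 for AML12 DEX against control at 25 h (0.027 to 0.094) and for HL-1 control times (0.018 to 0.047). In the other contrasts the signs were mixed, and weak pairing is not excluded. With the replicate block, 17 genes were called for DEX at 17 h, 1 at 25 h and 12 for the difference between times, where Ifit1 was not called (1.19, adjusted p = 0.0634, edgeR). With the block, 2 genes were called for CM at 16 h, 2 at 28 h and 0 for the difference between them.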

Other observations

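Mx1, which encodes a GTPase that traps influenza ribonucleoproteins and did not pass the low-count filter with all libraries, averaged 0.959 CPM in AML12 control cells at 17 h and 0.493 with DEX. At 25 h Mx1 averaged 0.295 CPM in control and 0.209 with DEX.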
